A study of Mus musculus with 8 samples.

Results

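The 8 genes described here encode receptor chains for oncostatin M, interleukin 6 and leukaemia inhibitory factor (Osmr, Il6st, Il6ra and Lifr), the kinases that these receptors carry (Jak1, Jak2 and Tyk2) and the transcription factor Stat3. They were chosen by gene symbol, and all 8 were found among the 19909 genes measured. The choice was made with earlier results of these data known, in which Osmr stood out for its level in old against young cells. Its values against young are therefore given as a description, with no test.

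Bulk RNA sequencing was done on haematopoietic stem cells (HSCs) purified from mouse bone marrow at steady state. Every mouse, young or old, carried the GFP-LC3 reporter on both alleles (Gfplc3/Gfplc3), a fusion of green fluorescent protein to LC3, which coats autophagosomes. There were 3 groups: HSCs from young animals of 8 to 12 weeks that were not split by GFP (2 libraries), and from 3 old mice aged over 24 months the 33% of HSCs with the lowest GFP (AThi, read as engaging autophagy, 3 libraries) and the 33% with the highest (ATlo, 3 libraries). AThi and ATlo were sorted as pairs from the same old mice, here named by the tags O10, O11 and O12 of the file headers, and the young libraries carry the tags D11 and D12. Only the old cells were gated on GFP, so in a comparison with young the effects of the gate and of age cannot be told apart. Nothing in the labels says how many mice gave the young RNA, so for young the spread may be technical.

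Cytokines of this family signal through a shared receptor chain, gp130, which Il6st encodes. Interleukin 6 first binds its own alpha chain (Il6ra), whereas oncostatin M and leukaemia inhibitory factor bring gp130 together with the chains encoded by Osmr and Lifr. The receptors have no enzyme activity of their own: bound Janus kinases phosphorylate the receptor tails, STAT3 docks there, is phosphorylated in turn and moves to the nucleus. There it switches on its targets, among them the feedback inhibitor Socs3.

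The libraries held 33960216 to 61341946 reads, and each ATlo library (at least 54512285) was deeper than any AThi library (at most 45830216). All 10 HSC markers checked were present. Their summed levels, in normalized counts (reads divided by a size factor for each library), were 122059 and 117693 in young. The sums were 118207 to 141551 in AThi and 86784 to 109078 in ATlo. In the authors' deposited table, Procr, Mecom and Hlf were called higher in AThi than in ATlo (log2 fold changes 0.95, 0.59 and 0.52). The other HSC markers were not called there. Progenitor markers (5 of 8 measured) summed to 7061 and 5425 in young, 2936 to 4121 in AThi and 4048 to 5202 in ATlo. Of these, 0 were called in AThi against ATlo. Stromal cells, which are known to carry these receptors, were checked through 10 markers, of which 4 were measured. Their summed level was 430 to 784 in young, 544 to 1296 in AThi and 568 to 1482 in ATlo. Of 6 endothelial markers 3 were measured, with sums of 244 and 270 in young, 511 to 744 in AThi and 210 to 337 in ATlo. Kdr alone carried the higher AThi sum (log2 fold change 1.61 in the authors' deposited table, adjusted p = 4.1e-04), with -0.51 for Flt4 and -0.42 for Plvap. Of the stromal markers, Sparc alone was called, lower in AThi than in ATlo (log2 fold change -4.03 in the authors' deposited table, adjusted p = 0.020). Pdgfrb was at 0.12, Col1a2 at -0.15 and Col1a1 at 2.68, the last with no adjusted p. Sparc was at 0, 8.81 and 1.05 normalized counts in AThi O10, O11 and O12 and 86.4, 34.9 and 43.5 in ATlo. Apart from Sparc in AThi O10, no measured marker of these 2 lists was at 0. The B cell gene Ighm was at 8395 in young D12, 20936 in AThi O12 and 7314 in ATlo O12 and at most 63.5 elsewhere. In the same order these 3 libraries held 700, 255 and 485 of the erythroid gene Hba-a1 (at most 16.6 elsewhere). They held 229, 73.2 and 141 of the macrophage gene Adgre1 (at most 27.0 elsewhere). Alas2 of the erythroid list and Lyz2 of the monocyte and macrophage list did not follow this pattern. Megakaryocyte and platelet markers (8 of 10 measured) summed to 6639 and 8621 in young, 22732 to 24955 in AThi and 17361 to 20997 in ATlo. Between AThi and ATlo they did not move together: in the authors' deposited table Itgb3 was higher in AThi (log2 fold change 0.70, adjusted p = 0.0029), while Pf4 (-0.97, adjusted p = 0.070) and Itga2b (-0.67, adjusted p = 0.054) had values below 0. The part of depth and of these markers in the results was not tested. In bulk RNA, fewer cells that express a gene and less RNA per cell cannot be told apart.

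Osmr lies on chromosome 15 (6813577 to 6874969, minus strand, GRCm38) and Il6st on chromosome 13 (112464070 to 112510086, plus strand). The RefSeq promoter windows (GRCm38.p6) of these genes are shown because their RNA levels differ between groups, as described next. The first belongs to a gene nearly silent in young HSCs and the second to its always present partner. A link between the windows and the RNA levels was not tested. Each window runs from 250 bases before the RefSeq transcription start to 50 after it, and capitals mark CpG pairs. The Osmr window lies wholly inside the gene span given above, which on the minus strand starts at 6874969. For Osmr the RefSeq start and that span thus place the start differently.
Osmr, chr15:6874264-6874563, minus strand: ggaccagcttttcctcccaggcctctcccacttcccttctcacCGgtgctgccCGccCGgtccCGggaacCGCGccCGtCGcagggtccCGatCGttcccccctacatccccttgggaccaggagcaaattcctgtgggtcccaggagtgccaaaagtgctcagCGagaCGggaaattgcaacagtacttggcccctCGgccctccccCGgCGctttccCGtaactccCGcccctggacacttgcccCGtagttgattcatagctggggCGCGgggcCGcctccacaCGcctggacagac
Il6st, chr13:112463820-112464119, plus strand: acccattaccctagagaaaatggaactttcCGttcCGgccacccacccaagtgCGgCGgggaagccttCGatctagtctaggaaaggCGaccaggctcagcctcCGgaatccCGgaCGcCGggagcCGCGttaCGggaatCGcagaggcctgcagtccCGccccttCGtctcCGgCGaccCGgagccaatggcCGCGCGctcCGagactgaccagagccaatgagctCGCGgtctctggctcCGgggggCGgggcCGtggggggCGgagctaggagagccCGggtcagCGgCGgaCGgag
The Osmr window held 22 CpG pairs and the Il6st window 33, against a median of 7 over 32851 promoter windows. So the window of the gene that was nearly silent in young is CpG-rich as well. The STAT letters TTCNNNGAA, searched on both strands, were in neither window nor in that of any other of the 8 genes, and were in 8.30% of all windows. The AP-1 letters TGANTCA matched once in the Osmr window and in 7.81% of all windows.

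Osmr, the chain that makes gp130 a receptor for oncostatin M, was close to absent in young HSCs and present in all old ones. It was at 6.23 and 31.7 normalized counts in young (6 and 30 reads). AThi O10, O11 and O12 held 1805, 1790 and 1696, and ATlo O10, O11 and O12 held 1202, 676 and 355. No group overlapped another: every AThi library was above every ATlo library, and every ATlo library was above both young ones. AThi libraries were close to each other (1764 ± 59.1, SD, n = 3), whereas ATlo libraries spread widely (744 ± 428, SD, n = 3). The log2 fold change against young in the authors' deposited table was 6.54 (SE 0.54) for AThi and 5.30 (SE 0.54) for ATlo. These sizes rest on 36 young reads in all, and they were 8.14 and 6.90 without young D12 and 5.80 and 4.55 without young D11.

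Within each old mouse, Osmr was higher in AThi than in ATlo, by 1.5 times in O10, 2.65 times in O11 and 4.78 times in O12. AThi against ATlo passed narrowly in the authors' deposited table (DESeq2 Wald test, log2 fold change 1.25, SE 0.43, Benjamini-Hochberg adjusted p = 0.048). With the mouse as a block, the DESeq2 fit gave a log2 fold change of 1.41 and an adjusted p of 9.2e-06. The quasi-likelihood test of edgeR did not call it, either without the block (adjusted p = 0.24) or with it (adjusted p = 0.11). In the DESeq2 fit without the block, the call was also lost when AThi O10, AThi O11, AThi O12, ATlo O11 or ATlo O12 was left out (log2 fold change 0.91 to 1.27, adjusted p between 0.10 and 0.50). Without both libraries of mouse O12, the log2 fold change was 0.94 (adjusted p = 0.27).

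**Figure D1:**
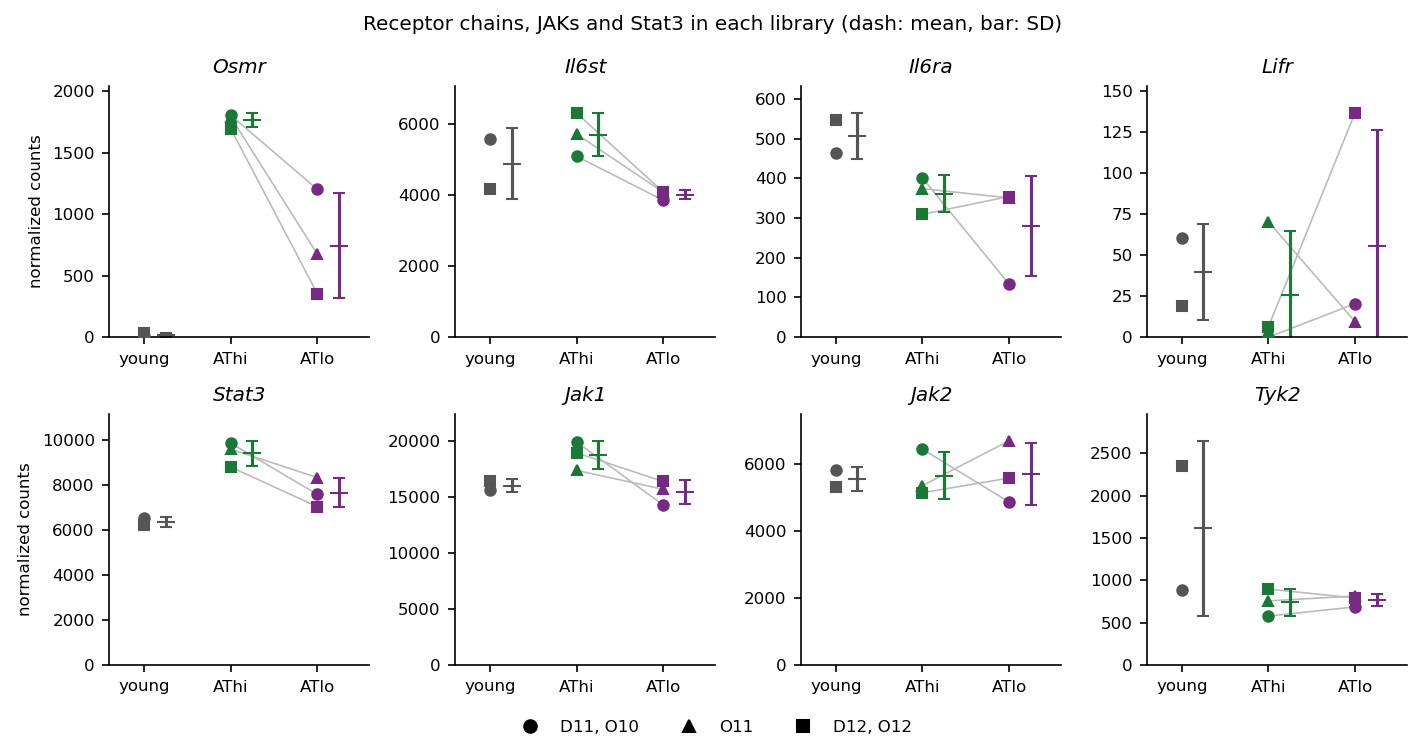
Normalized counts (vertical axes, from 0) of the 8 genes in each library of the 3 groups (horizontal axes), with the mean and SD beside the points and grey lines joining AThi and ATlo of the same old mouse. For Osmr the young libraries sit at 6.23 and 31.7, the AThi libraries between 1696 and 1805 and the ATlo libraries between 355 and 1202.

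Il6st, the gp130 chain that all these receptors share, was higher in AThi than in ATlo and did not pass against young. Young libraries held 5600 and 4184 normalized counts, AThi libraries 5101, 5728 and 6319, and ATlo libraries 3863, 4090 and 4095. Every AThi library was above every ATlo library, and both young libraries were also above every ATlo library. AThi and young overlapped. Per mouse, the ratio of AThi to ATlo was 1.32 in O10, 1.4 in O11 and 1.54 in O12, a far narrower range than that of Osmr. The authors' deposited table gave a log2 fold change of 0.51 (SE 0.15, adjusted p = 0.012), and the DESeq2 fit with the mouse as a block gave 0.50 (adjusted p = 4.0e-04). By edgeR the adjusted p was 0.11 without the block and 0.077 with it. The DESeq2 call was lost without AThi O11, AThi O12, ATlo O10 or ATlo O11 (log2 fold change 0.43 to 0.52, adjusted p between 0.053 and 0.078) and without both libraries of mouse O12 (0.45, adjusted p = 0.17).

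Il6ra, the alpha chain that binds interleukin 6, was present at a low level in all groups. Young libraries held 465 and 548 normalized counts, AThi libraries 401, 374 and 310, and ATlo libraries 134, 351 and 355, so both young libraries lay above all old ones. The difference did not pass in the authors' deposited table, with log2 fold changes of -0.49 (SE 0.43, adjusted p = 0.75) for AThi and -0.86 (SE 0.43, adjusted p = 0.32) for ATlo against young. AThi and ATlo overlapped, and ATlo O10 stood below the other old libraries. Without that library the AThi against ATlo log2 fold change was 0.04.

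Lifr, the signalling chain of the leukaemia inhibitory factor receptor, was low and uneven. Young libraries had 58 and 18 reads of it, AThi libraries 0, 64 and 6, and ATlo libraries 26, 12 and 176. The libraries of 1 group differed as much as the groups did, and the 0 in AThi O10 allows up to 4.39 normalized counts (3 reads, counting error only). No comparison passed, and the 95% interval of AThi against ATlo in the authors' deposited table ran from -3.92 to 1.68 on the log2 scale. With this spread between libraries, a difference between groups was not detectable.

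Jak1, a kinase that these receptors carry, was the most abundant of the 8 genes. Young libraries held 15599 and 16427 normalized counts, AThi libraries 19933, 17388 and 18959, and ATlo libraries 14298, 15702 and 16395. All AThi libraries were above all others, and ATlo overlapped young. In the authors' deposited table AThi against ATlo had a log2 fold change of 0.28 (SE 0.10, adjusted p = 0.079). With the mouse as a block, the DESeq2 fit called Jak1 (0.28, adjusted p = 0.038), and edgeR did not (adjusted p = 0.19).

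Jak2, a kinase that also serves other cytokine receptors, lay between 4862 and 6694 in all 8 libraries. The groups overlapped in each comparison, and AThi was above ATlo in 1 of 3 mice. The interval of its AThi against ATlo log2 fold change in the authors' deposited table ran from -0.32 to 0.29.

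Tyk2, the third kinase, had 883 and 2346 normalized counts in the young libraries, 577, 756 and 896 in those of AThi, and 686, 815 and 791 in those of ATlo. A single library, young D12, was high, and it is also the young library with high Ighm. The old libraries with high Ighm, AThi O12 and ATlo O12, held 896 and 791 of Tyk2. The part of RNA from B cells or other mature cells in this was not tested. The authors' deposited table had Tyk2 lower in AThi than in young (log2 fold change -1.12, SE 0.37, adjusted p = 0.045), with -1.08 (SE 0.37, adjusted p = 0.064) for ATlo. Without young D12 these were -0.25 (adjusted p = 0.95) and -0.21 (adjusted p = 0.91), and edgeR called neither (adjusted p = 0.24 and 0.28). Leaving out 1 library at a time, the AThi call held in 2 of 8 fits, those without young D11 or AThi O12. It was lost without AThi O10, AThi O11 or any 1 ATlo library (adjusted p between 0.053 and 0.18).

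Stat3, the transcription factor that the kinases activate, had 6505 and 6201 normalized counts in the young libraries, 9848, 9583 and 8787 in those of AThi, and 7573, 8321 and 7029 in those of ATlo. The groups were ordered without overlap, with young lowest and AThi highest. Stat3 rose in AThi against young by 0.57 on the log2 scale in the authors' deposited table (SE 0.12, adjusted p = 3.6e-04), a level 1.48 times as high. The call was lost by edgeR (0.57, adjusted p = 0.059), without young D12 (0.53, adjusted p = 0.056) and without the 3 libraries tagged 12, which hold the high Ighm (0.58, adjusted p = 0.063), while the size of the difference stayed close to that deposited. The authors' deposited table gave ATlo against young as 0.27 (SE 0.12, adjusted p = 0.26) and AThi against ATlo as 0.30 (SE 0.11, adjusted p = 0.074). With the mouse as a block, the DESeq2 fit called AThi against ATlo (0.30, adjusted p = 0.027), and edgeR did not (adjusted p = 0.15).

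**Figure D2:**
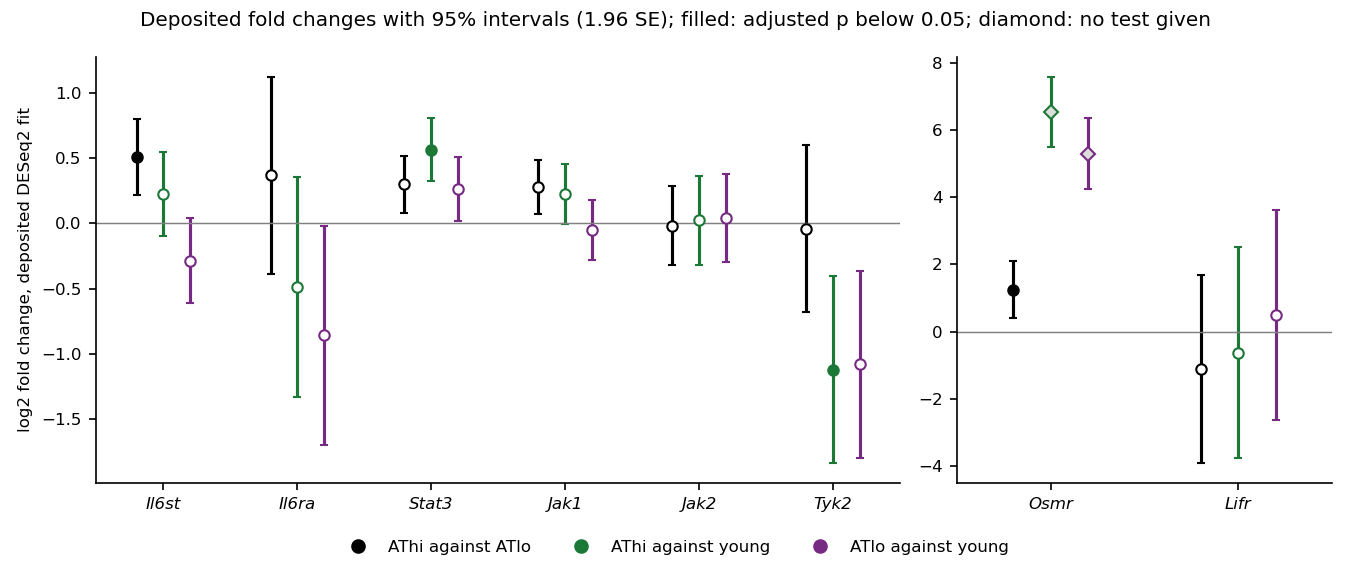
Log2 fold change (vertical axes) of each gene in the 3 comparisons of the authors' deposited table, with 95% intervals as bars. Il6st and Osmr are filled for AThi against ATlo, and Stat3 and Tyk2 for AThi against young; the diamonds of Osmr against young, at 6.54 and 5.30, are shown with no test.

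Across the 8 genes, 2 were called higher in AThi than in ATlo and 0 lower in the authors' deposited table, where 3.47% of all tested genes were called higher and 4.43% lower (7.90% in either direction). By edgeR 0 of the 8 were called (1.41% of all genes, either direction), although 4 had an unadjusted p under 0.05, and 0 were called with the mouse as a block (1.52%). With the mouse as a block, the DESeq2 fit called 4 of the 8 higher (Osmr, Il6st, Stat3 and Jak1), against 5.12% of all genes called higher and 10.4% in either direction. The same 4 genes were higher in AThi in every old mouse, which 21.1% of all genes were. For each of the 4, every AThi library was above every ATlo library, which held for 10.3% of all genes. The median log2 fold change of the 8 was 0.29, against 0.03 over all genes. In AThi against young, of the 7 genes other than Osmr, Stat3 was called higher and Tyk2 lower (3.13% of all genes higher, 1.91% lower, 5.04% either). In ATlo against young, 0 of these 7 were called (2.37% of all genes higher, 1.98% lower, 4.34% either). By edgeR 0 of the 7 were called in either comparison with young (1.21% of all genes for AThi and 0.653% for ATlo). Without overlap, 2 of the 7 were higher in AThi than in young (13.7% of all genes) and 1 lower (14.0%), and 1 was higher in ATlo (15.7%) and 3 lower (15.1%). The members were picked with results known, so their counts carry no further weight.

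**Figure D3:**
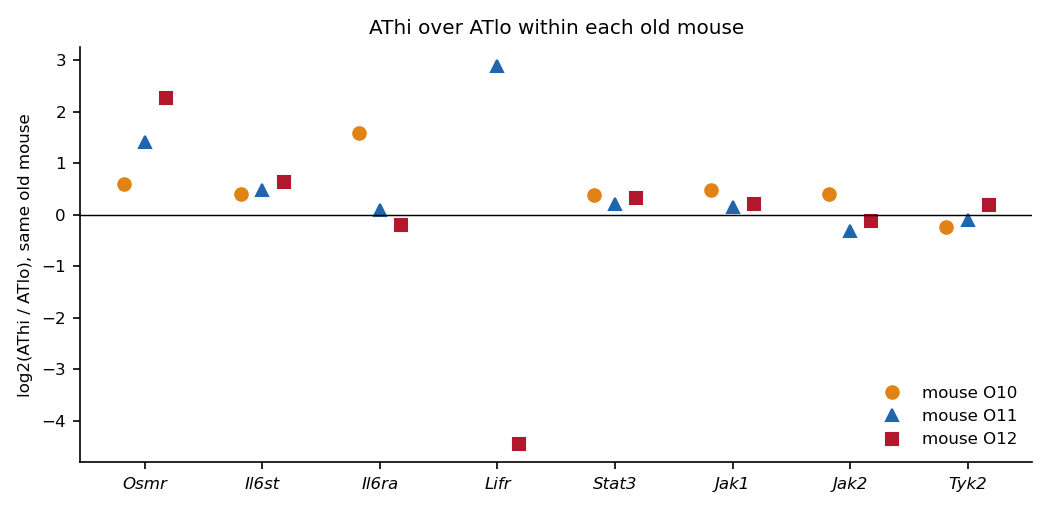
Log2 ratio of AThi to ATlo normalized counts within each of the 3 old mice (vertical axis) for each gene (horizontal axis); Lifr has no point for O10, where AThi had 0 reads. Osmr, Il6st, Stat3 and Jak1 lie above 0 in all 3 mice, and Osmr spreads from 0.59 to 2.26.

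Levels of different genes were compared per kilobase of exon, with the union of GENCODE M21 exons as length. In AThi the order was Jak1 (2596 ± 178 normalized counts per kb), Jak2 (1122 ± 139), Stat3 (987 ± 58.0), Il6st (515 ± 54.9), Osmr (146 ± 4.88), Tyk2 (108 ± 23.3), Il6ra (41.9 ± 5.44) and Lifr (2.37 ± 3.62; SD, n = 3 each). The SD ranges of Jak2 and Stat3 overlapped in AThi, but within each library Jak2 was above Stat3. In young, Osmr (1.56 ± 1.49, SD, n = 2) stood with Lifr (3.68 ± 2.71, SD, n = 2) at the bottom, and in ATlo it was at 61.4 ± 35.3 (SD, n = 3). Set against Il6st on the same per-kilobase scale, the level of Osmr was 0.10% and 0.69% in young, 32.4%, 28.6% and 24.6% in AThi O10, O11 and O12, and 28.5%, 15.1% and 7.93% in ATlo O10, O11 and O12. The gp130 chain was thus the more abundant of the pair in all 8 libraries. The share in ATlo O10 lay within the AThi range, and the other ATlo libraries were below it.

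**Figure D4:**
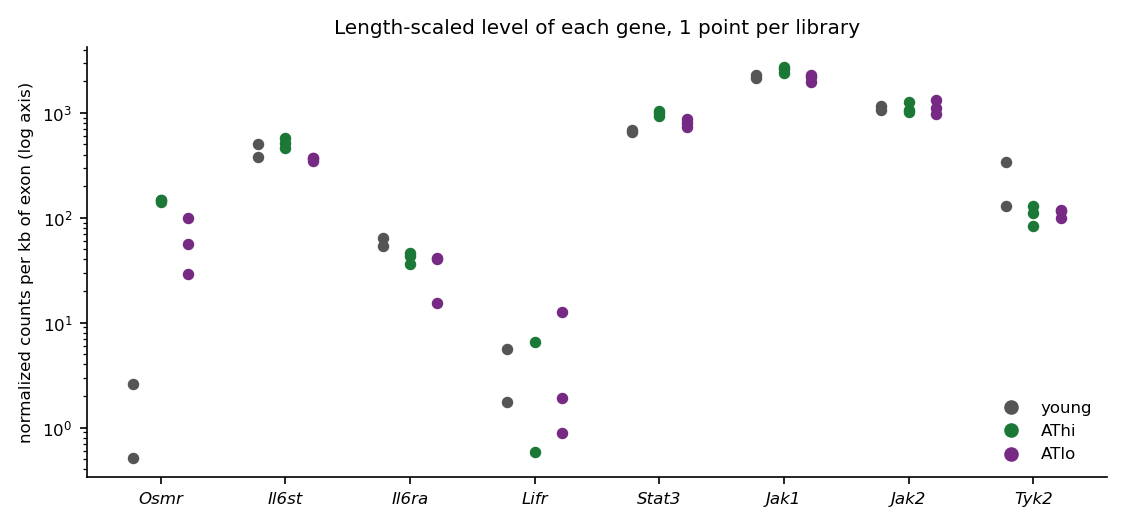
Normalized counts per kilobase of exon (vertical log axis) for each gene (horizontal axis), with 1 point per library coloured by group; the library with 0 reads of Lifr is left out. Jak1 is highest in all groups, and Osmr moves from 1.56 on average in young to 146 in AThi.

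Exons of Stat3 overlap those of Stat5a on the opposite strand by 72 of 9527 bases, those of Jak1 overlap Raver2 by 4 of 7227, and those of Tyk2 (554 of 6865) and Il6ra (242 of 8642) overlap antisense genes. Whether counting used strand is unknown from the labels, so reads there could belong to either gene. Osmr, Il6st, Lifr and Jak2 have no such overlap.

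Beyond the 8 genes, 6 lists of the same pathway were examined, with 85 of 99 genes measured. Of these, 7 were higher and 0 lower in AThi than in ATlo in the authors' deposited table, where 3.47% of all genes were called higher and 4.43% lower. By edgeR 0 were called (1.41% of all genes), with adjusted p between 0.063 and 0.18 for those 7. Against young, 9 were higher and 2 lower in AThi (3.13% and 1.91% of all genes), and 4 were higher and 6 lower in ATlo (2.37% and 1.98%). Among 6 cytokines of the family, Ebi3, a subunit of interleukin 27, was the 1 called in AThi against ATlo (log2 fold change 1.17 in the authors' deposited table, SE 0.34, adjusted p = 0.014). It was also lower than young in AThi (-1.86, SE 0.38) and in ATlo (-3.03, SE 0.38) in the authors' deposited table, and edgeR called both (adjusted p = 0.042 and 0.0073). DESeq2 with the mouse as a block did not call Ebi3 in AThi against ATlo (adjusted p = 0.11) and called another cytokine of the family, Clcf1 (adjusted p = 0.020). Clcf1 was at 299, 121 and 296 normalized counts in AThi and 157, 29.4 and 79.3 in ATlo, and the authors' deposited table gave it a log2 fold change of 1.43 (SE 0.61, adjusted p = 0.14). Osm, which encodes oncostatin M itself, was at 35.9 to 47.8 normalized counts in young, 28.6 to 62.8 in AThi and 69.9 to 119 in ATlo. The ATlo libraries lay above the others, and the difference did not pass (AThi against ATlo -1.01 in the authors' deposited table, SE 0.60, adjusted p = 0.36).

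Of the 7 other JAK and STAT genes, 0 were called in any of the 3 comparisons of the authors' deposited table. Stat5a, a STAT activated by several cytokine receptors, averaged 3267 ± 329 (AThi) against 3245 ± 66.0 (ATlo) normalized counts, with SD over 3 libraries each. With the mouse as a block, Jak3 was lower in AThi (DESeq2 adjusted p = 0.046). Of the 2 measured other receptor chains of the gp130 family, Il27ra rose in AThi against young (authors' deposited table: 0.78, SE 0.22, adjusted p = 0.013), and edgeR did not call it (adjusted p = 0.14). Il11ra1 did not pass in any comparison.

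Among 23 further JAK-coupled receptors, 2 rose in AThi against ATlo in the authors' deposited table: Ifngr1, a chain of the interferon gamma receptor (0.55, SE 0.13, adjusted p = 8.7e-04), and Ghr, the growth hormone receptor (0.55, SE 0.16, adjusted p = 0.012). Ifngr1 was at 3443, 3302 and 3264 in AThi O10, O11 and O12 and 2404, 2257 and 2155 in ATlo O10, O11 and O12, so the groups did not overlap. With the mouse as a block, DESeq2 also called Il2rg (adjusted p = 0.0499) and Csf2rb2 (adjusted p = 0.0063) higher. Against young, Il12rb2, a chain of the interleukin 12 receptor, fell in AThi (-1.92, SE 0.29) and ATlo (-1.56, SE 0.29) in the authors' deposited table, and edgeR called both (adjusted p = 0.010 and 0.040). Ghr (0.74, SE 0.18), Csf3r (0.84, SE 0.27) and Il13ra1 rose in AThi against young in the authors' deposited table, none by edgeR. Il13ra1 was at 2.08 and 2.11 normalized counts in young and 35.1, 24.2 and 105 in AThi, so its young level rests on very few reads. Csf2rb fell (-2.11, SE 0.56) and Epor rose (1.73, SE 0.56) in ATlo against young in the authors' deposited table, also not by edgeR.

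Of 19 inhibitors of the pathway, Socs5 alone rose in AThi against ATlo (authors' deposited table: 0.54, SE 0.17, adjusted p = 0.024), though not by edgeR (adjusted p = 0.14). The block added Cish, Cbl and Ptpn11. Cish (-1.42, SE 0.31), Socs2 (-4.49, SE 1.23) and Socs5 (-0.69, SE 0.19) fell in ATlo against young in the authors' deposited table, none by edgeR. Socs3 rose in AThi against young in the authors' deposited table (1.92, adjusted p = 2.3e-04), not by edgeR (adjusted p = 0.076).

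Genes listed as STAT3 targets numbered 30 measured, of which 3 rose in AThi against ATlo in the authors' deposited table: Klf6 (0.73, SE 0.17, adjusted p = 0.0011), Junb (0.65, SE 0.20, adjusted p = 0.018) and Fosl2 (0.71, SE 0.24, adjusted p = 0.045). These are immediate early transcription factors that other pathways induce as well. Fosl2 was at 1475, 1780 and 1164 in AThi O10, O11 and O12 and 669, 996 and 1040 in ATlo O10, O11 and O12. In AThi against young 5 of the 30 rose (3.13% of all genes), with Muc1, Socs3, Gadd45g and Fosl2 first by adjusted p. In ATlo against young 3 rose (2.37% of all genes), namely Muc1, Ccnd1 and Gadd45g. Only Muc1 was called by edgeR (adjusted p = 0.0027 for AThi and 0.0045 for ATlo). The median log2 fold change of the list was 0.23, 0.29 and 0.15 in the 3 comparisons, against 0.03, -0.00 and 0.01 over all genes. Over all the pathway lists together it was 0.27, 0.09 and -0.09. The AThi against ATlo median was 0.32 for the inhibitors, 0.30 for the further JAK-coupled receptors and 0.04 for the other JAK and STAT genes. A shift in that comparison was thus not particular to the STAT3 targets.

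**Figure D5:**
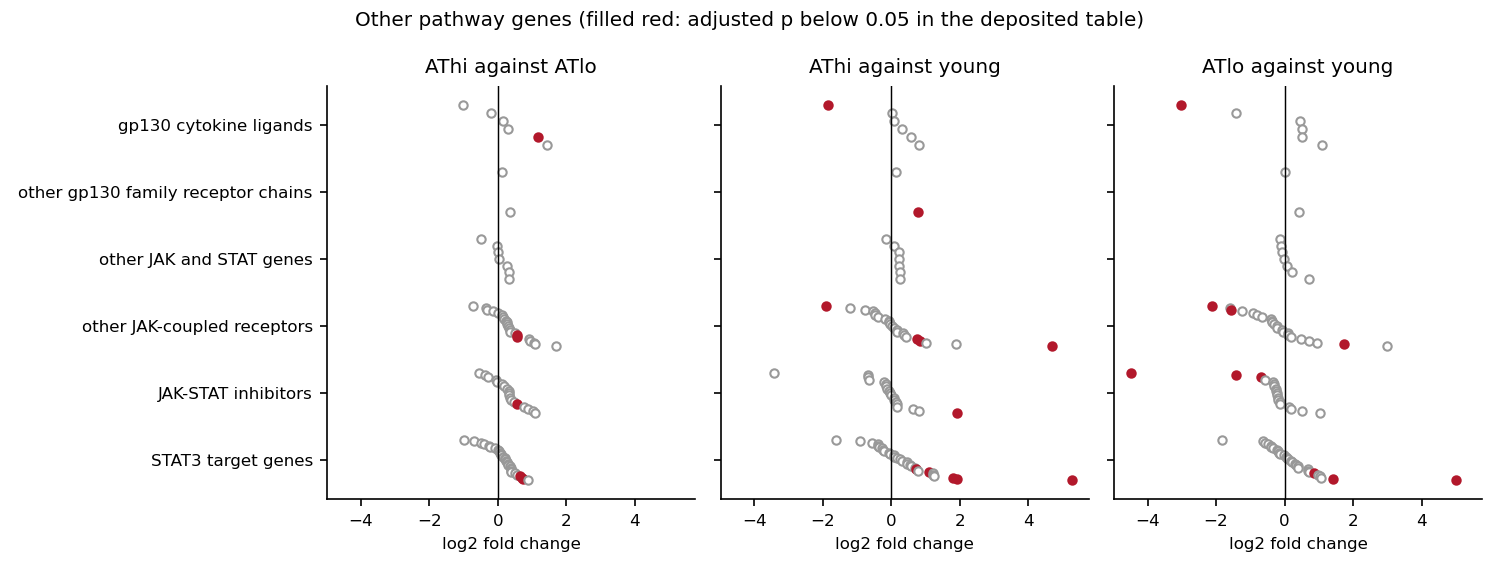
Log2 fold change (horizontal axes) of each measured gene of the 6 pathway lists (rows) in the 3 comparisons of the authors' deposited table, filled red where adjusted p is below 0.05. In AThi against ATlo all 7 filled genes are above 0, and the row of other JAK and STAT genes has none filled in any comparison.

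Genes with a pattern like that of Osmr over the 8 libraries were ranked by Pearson's r on log2(normalized count + 1) among 11023 other genes with a mean of at least 100. The 8 points share 3 groups, so r is a description. The closest were Il1rapl2 (r = 0.993), an accessory-protein-like member of the interleukin 1 receptor family, Prcp, a carboxypeptidase (r = 0.984), Sbspon (r = 0.984), Enpp5 (r = 0.984) and the bone morphogenetic protein receptor Bmpr1a (r = 0.983). Young libraries held 38.4 and 76.0 normalized counts of Il1rapl2, AThi libraries 777, 688 and 530, and ATlo libraries 671, 437 and 316. As with Osmr, its ATlo level was highest in O10 and lowest in O12. For Sbspon the values were 17.7 and 52.8 (young), 1342, 847 and 1338 (AThi), and 556, 300 and 306 (ATlo).

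A regulator table, also one of the authors' deposited tables, names 726 candidate upstream regulators of the AThi against ATlo differences, each with a list of target genes. Some also have an activation score, but JAK2 and TYK2 have none. LIF was listed in that authors' deposited table as inhibited (score -2.25, p of overlap 0.0020, 12 targets). STAT3 had a score of -1.31 (p of overlap 0.0079, 24 targets) and IL6 of 0.03 (p of overlap 1.15e-10, 47 targets) in the authors' deposited table, neither with a predicted state. OSMR stood among the targets of 16 of the 726 regulators in the authors' deposited table, JAK2 and TYK2 among them. The other 7 genes, searched by their mouse symbols in capitals, stood among those of 0. The target lists name only molecules in the dataset entered, and which genes were entered is not given. The 0 of these 7 genes therefore does not set Osmr apart from them. The activation scores draw on the same AThi against ATlo comparison and add no separate measurement.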

How the data were processed

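RNA of about 10000 HSCs per sample (RNA integrity number over 9.0) was collected on 2 sort days, and all low-input libraries were prepared together and read as paired ends of 50 bases, per the labels' protocols. Per the submitters' processing notes, reads were processed on GRCm38 with STAR, featureCounts and DESeq2, beside FastQC and MultiQC. Versions, annotation and strandedness were not given in the sources used. Tables deposited by the authors hold a log2 fold change per contrast, its SE, the Wald score, raw and adjusted p-values, and a normalized signal per library (reads divided by a size factor), per the file headers. The upstream regulator table, also deposited by the authors, holds a p-value of overlap per regulator and a score for some of them.

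Each normalized column is a whole multiple of the value of 1 read, within 0.01 of a read for 100% of values, so reads were recovered. Header tags differ from the labels' replicate numbers, so columns were matched to groups, and old libraries with the same tag were taken as the same mouse, as the labels describe pairs. Deviations from the group means correlated between same-tag AThi and ATlo libraries (r = 0.21, 0.16 and 0.37) and at most 0.03 between other tags. The labels do not say how many mice gave the young RNA.

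The main test is the deposited DESeq2 Wald test over all genes, called at an adjusted p below 0.05. Recovered reads were refitted with DESeq2 1.42.0 (which gave the same 1414, 961 and 811 calls), edgeR 4.0.16 and limma 3.58.1 in R 4.3.3, tested first on simulated data. DESeq2 fits with the mouse as a block used the 6 old libraries. Alternatives were edgeR, TMM factors, genes with a mean of 10 or more, limma with pseudocounts of 1 and 0.5, the replicate block, leaving out each library and, chosen after seeing the data, edgeR with the block and leaving out libraries with high B cell genes. The members and lists were chosen with earlier results of these data known. All 8 members were named, with up to 4 called genes per list and contrast, and the 5 genes most like Osmr with a mean of at least 100 and no predicted, clone, mitochondrial or pseudogene symbol. Genes that only the block called, the cell type markers named, Stat5a, Il11ra1 and Osm fall outside this rule and were chosen after their values were seen. Other tools were Python 3.11.15, numpy 2.4.6, pandas 2.3.3 and matplotlib 3.10.9.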

Additional observations from a re-analysis of the deposited data

How the results depend on the processing

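Each result was recomputed under the alternatives, 3 of which were added after seeing the data. Genes called in AThi against ATlo numbered 1414 as deposited, 280 by edgeR (60 higher, against 621 of 1414), 303 by edgeR with the replicate block, 364 and 351 by limma (pseudocounts 1 and 0.5), 795 without the 3 libraries tagged 12, and 932 to 1429 leaving out 1 library. Both 932 values came without AThi O10 or ATlo O11. With the replicate block in DESeq2, which pairs libraries by mouse, 1946 were called. Pathway list genes called there numbered 7, and 0 by edgeR, edgeR with the block and both limma fits, 14 with the DESeq2 block, 2 without the libraries tagged 12, and 4 to 8 leaving out 1 library (4 without AThi O11, ATlo O11 or ATlo O12). For AThi against young, 961 became 240, 291, 279 and 564 (edgeR, limma 1, limma 0.5, without tag 12) and 583 (without young D12) to 1093 leaving out 1; pathway genes went from 11 to 3, 5, 5 and 5, and 5 (without young D12) to 13. For ATlo against young, 811 became 130, 188, 181 and 485, and 356 (without young D11) to 889; pathway genes went from 10 to 3, 3, 3 and 6, and 7 to 10. TMM factors and a mean of at least 10 kept each of these counts within 1.5 times. Directions turned only for log2 fold changes that were not called. Without both O12 libraries, and without tag 12, AThi against ATlo was 1.24 for Lifr and 0.029 for Jak2; ATlo against young was -1.40 and -2.01 for Lifr, which limma put at -0.15 and -0.17. Without tag 12, AThi against young was -0.049 for Il6st and ATlo against young -0.0067 for Jak2. Leaving out 1 library, AThi against ATlo ran from -4.09 to 0.78 for Lifr, -0.12 to 0.11 for Jak2 and -0.20 to 0.11 for Tyk2; AThi against young from -3.60 to 0.43 for Lifr and -0.082 to 0.091 for Jak2; ATlo against young from -1.40 to 1.55 for Lifr, -0.094 to 0.0032 for Jak1 and -0.089 to 0.14 for Jak2. The cause was not tested. Few reads stand behind Lifr and the young level of Osmr.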
